A study of Homo sapiens with 3 samples.

Results

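The genes that copy DNA and carry cells from G1 into S phase were followed in A375, an established human melanoma line, after exposure to medium conditioned by adipocytes. The set held 40 of the 58037 genes in the count table and was picked by gene symbol. It covered 9 roles, from the marking of origins to the supply of deoxynucleotides. One RNA sequencing library was made per group. Control A375 cells were kept in serum-free DMEM. YA-A375 cells received young adipocyte secretome and OA-A375 cells received old adipocyte secretome. A secretome was serum-free DMEM conditioned by cultures of human subcutaneous preadipocytes that had been differentiated into adipocytes. Differentiation was incomplete per the study's methods, and the donors behind the medium of each library were not given in the sources used here. The exposure was 24 h per the description of the series, whereas the protocol shared by the samples gives 24 to 48 h. All 3 groups were without serum and carried no engineered allele.

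Before S phase, the origin recognition complex with CDC6 and CDT1 loads the MCM2-7 helicase onto origins of replication. Kinases then join CDC45 and the GINS complex to MCM2-7, which opens the duplex, while RPA coats single strands, DNA polymerase alpha with primase lays down primers, and polymerases delta and epsilon extend them with the help of the sliding clamp PCNA. Most of these genes are transcribed at the border of G1 and S by E2F factors, once cyclin D and cyclin E kinases have released them from the retinoblastoma protein, so that their joint RNA level is widely used as a readout of entry into S phase.

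Depth was 21448195 counts for control, 21306558 for YA-A375 and 18089008 for OA-A375. Counts were divided by DESeq2 size factors of 1.06, 1.06 and 0.891. A fold change is the plain ratio of 2 libraries' normalised counts, and a log2 fold change is the log2 of that ratio after a pseudocount of 1 was added to each. All 40 genes passed the filter of a mean normalised count of at least 20, as did 14413 genes in all. With 1 library per group no difference could be set against the spread between replicates. Brackets after a fold change give the 95% Clopper-Pearson interval from the reads of both libraries, which covers counting error alone, since reads copied by PCR and not tagged per molecule are not independent, and which says nothing of other cultures. A gene was counted as higher or lower from 1.2-fold. The study names a cutoff of 1.2 for upregulated genes without saying whether it is a fold or a log2 value. It was read here as a linear fold and used in both directions. In a bulk library, fewer cells in S phase and less of these RNAs per cell cannot be told apart.

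The replication genes were lowest in YA-A375 and highest in OA-A375. Together they took 0.405% of all counts in control (95% Wilson interval 0.402% to 0.407%), 0.379% in YA-A375 (0.377% to 0.382%) and 0.453% in OA-A375 (0.45% to 0.456%). The 3 intervals did not overlap, but they too cover counting error alone and say nothing of other cultures. The median log2 fold change of the 40 genes was -0.11 in YA-A375 against control, 0.17 in OA-A375 against control and -0.28 in YA-A375 against OA-A375. Over all 14413 genes the corresponding medians were -0.02, 0.01 and -0.01. These shifts were small in size. No member differed by 2-fold or more between any pair of libraries, and the standard deviation of the log2 fold change over the 40 genes was 0.179, 0.165 and 0.179. Both comparisons with control use the same control library, so their values are given side by side and are not independent.

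Of the 40 genes, 30 had their highest normalised count in OA-A375, 6 in control and 4 in YA-A375, and 27 had their lowest in YA-A375, 11 in control and 2 in OA-A375. The commonest order, OA-A375 over control over YA-A375, was found in 23 genes, among them 5 of the 6 MCM2-7 subunits. MCM5, RFC4, POLD1, POLE2, PRIM2, RPA3 and RRM1 were ordered OA-A375, YA-A375, control. CDC6, GINS1, PCNA and CCNE1 were highest in control and lowest in YA-A375. CDT1, RFC3, POLE and LIG1 were the 4 genes with the highest value in YA-A375, and POLA1 and CCNE2 the 2 with the lowest in OA-A375. Many neighbours in these orders, such as RFC3 at 1016, 1033 and 868 counts with folds of 1.02 and 1.02 over control, differed by less than their counting error. The orders, and the libraries with the highest and lowest value, were not counted over all tested genes. These numbers therefore describe the 40 genes alone and cannot be set against a background.

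Against control, 2 members (CDT1 and POLE) were at least 1.2-fold higher in YA-A375, where the share over all tested genes was 17.4%. Another 8 (MCM4, CDC6, GINS2, PCNA, FEN1, RPA2, CCNE1 and CCNE2) were at least 1.2-fold lower, which is 20% of the list beside 16.4% of all genes. The count of lower genes was thus near the background and the count of higher genes below it. The interval lay wholly beyond 1.2-fold for POLE on the higher side (6.03% of all genes) and for CDC6, PCNA and FEN1 on the lower side (4.44% of all genes). For 16 members the interval lay wholly within 1.2-fold in either direction, as it did for 31.1% of all genes. In all, 29 of the 40 (72.5%) had a fold change under 1, beside 53.1% of all genes. When fold changes were centred on genes of like GC content and length, CDT1, MCM4, GINS2, RPA2 and CCNE2 no longer reached 1.2-fold, and centred on genes of like expression MCM4, GINS2 and RPA2 did not, while POLE, CDC6, PCNA, FEN1 and CCNE1 did in both.

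In OA-A375 against control, 9 members were at least 1.2-fold higher, namely MCM4, ORC6, GINS4, RFC4, POLD1, POLD3, POLE2, RPA3 and RRM2. That is 22.5% of the list beside 21.1% of all genes, again near the background. CCNE2 alone was at least 1.2-fold lower, beside 21.5% of all genes. RRM2 was the 1 member with an interval wholly beyond 1.2-fold higher (9.04% of all genes), no member had one beyond 1.2-fold lower (9.08%), and for 15 the interval lay within 1.2-fold (25.4%). A fold change over 1 was found in 34 of the 40 (85%), beside 50.9% of all genes. ORC6 at 1.202-fold and POLD3 at 1.204-fold lay just inside the threshold, and RFC5 and POLA2, both at 1.197-fold, just outside it. With edgeR TMM factors or total counts, ORC6 and POLD3 also lay outside, as did MCM4, ORC6 and POLD3 when centred on genes of like expression and ORC6 and RFC4 when centred on genes of like GC content and length.

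**Figure D1:**
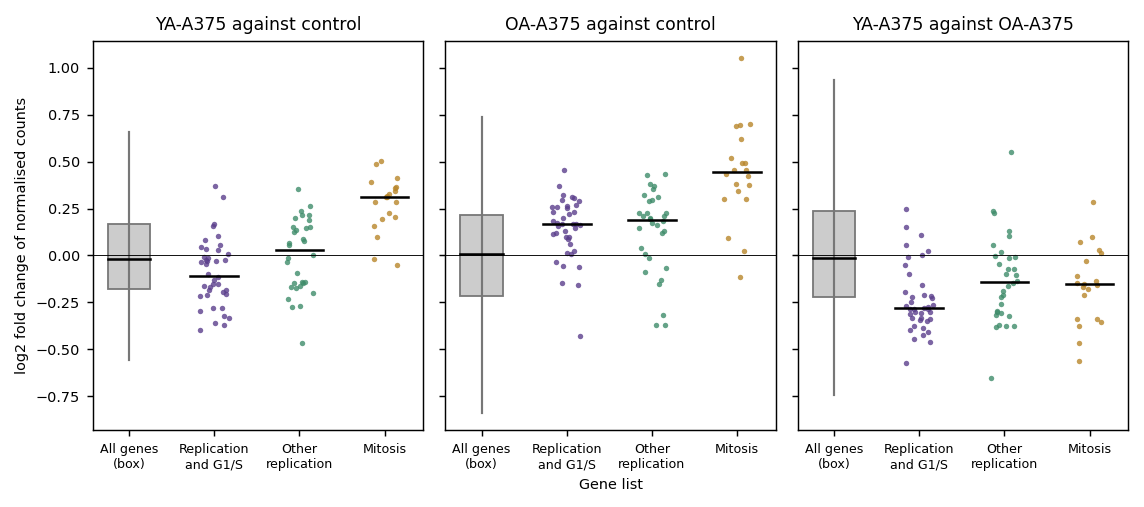
Log2 fold change of normalised counts (y axis) in 3 comparisons of single libraries, for all 14413 tested genes (box from the lower to the upper quartile, line from the 5th to the 95th percentile) and, as points with a bar at the median, for the 40 replication and G1/S genes, 32 other replication genes and 20 mitosis genes. The replication and G1/S genes have medians of -0.11, 0.17 and -0.28, while most mitosis genes lie above control, 18 of 20 in YA-A375 and 19 of 20 in OA-A375, with medians of 0.31 and 0.44.

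The direct comparison of YA-A375 with OA-A375 held most of the difference. There, 24 of the 40 genes (60%) were at least 1.2-fold lower in YA-A375, beside 21.5% of all genes, and none was at least 1.2-fold higher, beside 23.0% of all genes. The 24 came from every role and included MCM3, MCM4 and MCM6 of the helicase, CDC6, ORC1 and ORC6 of licensing, RPA1, RPA2 and RPA3, and E2F1. The interval lay wholly beyond 1.2-fold for 7 of them (MCM4, MCM10, GINS2, POLA2, FEN1, RPA2 and RRM2), beside 9.03% of all genes on the lower side, and for no member on the higher side, where the share of all genes was 10.0%. For 7 members the interval lay within 1.2-fold, beside 24.0% of all genes. The ratio of YA-A375 to OA-A375 ran from 0.671 for MCM4 to 1.19 for POLE, and the sum of the members' normalised counts in YA-A375 was 0.83 (0.822 to 0.839) of that in OA-A375. MCM3 at 0.83-fold and POLD1 at 0.831-fold lay just inside the threshold, and CCNE1 at 0.842-fold just outside it. Either centring gave 18 members at least 1.2-fold lower, and PCNA, ORC6, RFC4 and MCM3 were short of 1.2-fold under both.

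**Figure D2:**
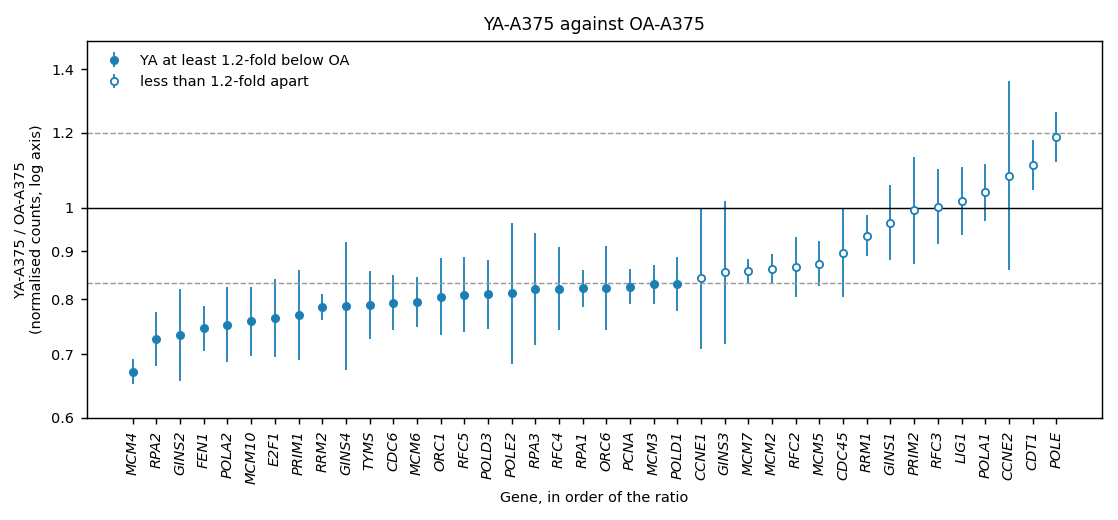
Ratio of normalised counts in YA-A375 to those in OA-A375 for each of the 40 genes (y axis, log scale), in order of the ratio, with 95% counting intervals as bars and 1.2-fold as dashed lines. Filled points are the 24 genes at least 1.2-fold lower in YA-A375, from MCM4 at 0.671 to POLD1 at 0.831, and 6 genes lie over 1.

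The promoters of the members were read to see which letters they share, because these genes are textbook targets of E2F. RefSeq windows (GRCh38.p14) from 250 bases before to 50 bases after the annotated start matched 33 of the 40 genes, some of them with several starts, giving 41 windows. MCM4, MCM5, GINS4, POLD3, RPA2, RPA3 and CCNE2 were not among them. The E2F letters searched on both strands were TTTCCCGC, TTTGGCGC, TTTCGCGC and TTTGCCGC, which can overlap one another across the strands. They stood in 18 of 41 windows (43.9%), beside 3.31% of 35116 windows of all genes and 21.1% of 19 windows of the mitosis genes. The letters CCAAT, bound by NF-Y, stood in 58.5% of the members' windows, 89.5% of the mitosis windows and 34.6% of all windows. TTTGAA, the core of the cell cycle genes homology region found in genes of G2 and mitosis, stood in 2.44%, 73.7% and 15.2%.

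Stretches are shown for genes with distinct patterns in these libraries, each read 5′ to 3′ on the strand of the gene, with all searched letters, E2F, CCAAT and TTTGAA, in capitals on either strand (CCAAT then reads ATTGG). They are MCM6 (chr2:135876514-135876603, minus strand, 160 to 71 bases before the start), whose order was the common one, PCNA (chr20:5126627-5126722, minus strand, 100 to 5 bases before the start), which was lower in YA-A375, and E2F1 (chr20:33686398-33686485, minus strand, 100 to 13 bases before the start), which encodes a factor that reads these letters. POLE (chr12:132687353-132687442, minus strand, 100 to 11 bases before the start) and CDT1 (chr16:88803740-88803769, plus strand, 49 to 20 bases before the start) are the 2 members that were at least 1.2-fold higher in YA-A375. CDC20 (chr1:43358881-43358954, plus strand, 100 to 27 bases before the start), a mitosis gene, is set beside them.
MCM6: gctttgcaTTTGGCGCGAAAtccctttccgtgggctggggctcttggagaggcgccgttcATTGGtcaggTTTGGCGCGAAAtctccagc
PCNA: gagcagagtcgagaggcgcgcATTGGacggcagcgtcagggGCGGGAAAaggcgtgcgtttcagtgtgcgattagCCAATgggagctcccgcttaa
E2F1: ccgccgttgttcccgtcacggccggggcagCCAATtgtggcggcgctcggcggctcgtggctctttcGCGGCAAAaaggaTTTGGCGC
POLE: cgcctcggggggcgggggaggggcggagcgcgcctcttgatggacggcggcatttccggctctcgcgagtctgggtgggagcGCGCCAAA
CDT1: gggccagggcgcccGCGGGAAAtttggcgg
CDC20: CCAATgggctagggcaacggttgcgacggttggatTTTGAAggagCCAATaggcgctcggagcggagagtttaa
Each run of 12 capitals in MCM6 is a pair of overlapping E2F matches on opposite strands. CCAAT stands in the stretches of MCM6, PCNA, E2F1 and CDC20, on one strand or the other. PCNA, lower in YA-A375, and CDT1, higher there, both carry GCGGGAAA, the reverse complement of TTTCCCGC. Over the 33 genes with a window, the 18 with E2F letters had median log2 fold changes of -0.12 in YA-A375 and 0.13 in OA-A375 against control, and the 15 without had -0.05 and 0.17. In YA-A375 against OA-A375 the medians were -0.25 with the letters and -0.28 without. A match is a description of the letters, and the absence of one says nothing about the factor.

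Licensing genes split in YA-A375. CDC6, the ATPase that helps load MCM2-7, had 2187 counts in control, 1688 in YA-A375 and 1791 in OA-A375, so that YA-A375 stood at 0.774 of control (0.726 to 0.825) and OA-A375 at 0.975 (0.916 to 1.04). CDT1, its partner in loading, had 1965, 2432 and 1846 counts and stood at 1.24 (1.17 to 1.32) in YA-A375 and 1.12 (1.05 to 1.19) in OA-A375. The partners thus lay on opposite sides of control in YA-A375, with intervals that did not overlap. ORC1 and ORC6, subunits of the origin recognition complex, stood at 0.881 and 0.99 in YA-A375 and at 1.09 and 1.2 in OA-A375.

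The MCM2-7 subunits, which form the ring of the replicative helicase, were all above control in OA-A375, by 1.06-fold for MCM3 to 1.23-fold for MCM4, with every interval above 1. In YA-A375 they ran from 0.823-fold for MCM4 to 1.03-fold for MCM5. MCM4 had 8899 counts in control, 7305 in YA-A375 and 9162 in OA-A375, and its YA-A375 to OA-A375 ratio of 0.671 (0.651 to 0.692) was the lowest of the 40. MCM7, the subunit with the most counts in control, had 9331, 9150 and 8997, which after scaling is 0.984 of control (0.956 to 1.01) in YA-A375 and 1.15 (1.12 to 1.18) in OA-A375. The 6 subunits are parts of 1 ring, yet their RNAs did not keep a constant ratio between YA-A375 and OA-A375, since the interval of MCM4 lay below those of the other five.

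Helicase activation genes were all below control in YA-A375. MCM10, which helps start unwinding, had 1229, 1055 and 1171 counts in control, YA-A375 and OA-A375, with a YA-A375 to OA-A375 ratio of 0.759 (0.697 to 0.825). GINS2, a GINS subunit, had 721, 592 and 679, with a ratio of 0.734 (0.656 to 0.821). GINS1, from the same complex, had 1162, 1001 and 874 and was below control in both exposures, at 0.864 (0.793 to 0.941) and 0.896 (0.82 to 0.979). The GINS genes therefore did not share 1 pattern across the libraries, and GINS4 was at 0.979 in YA-A375 and 1.24 (1.06 to 1.45) in OA-A375. CDC45, the helicase cofactor, and GINS3 were within 1.2-fold of control in both.

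**Figure D3:**
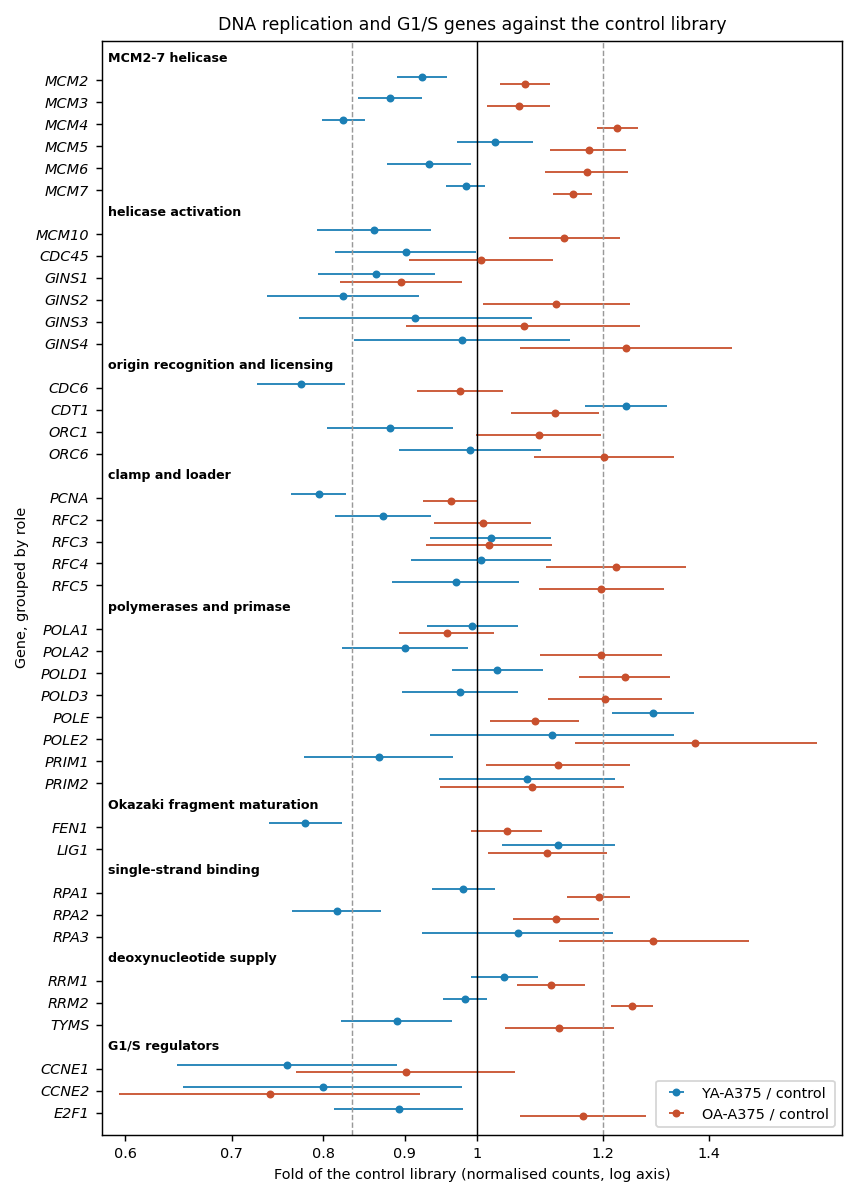
Fold of the control library for each of the 40 genes by role (x axis, log scale), in YA-A375 (blue) and OA-A375 (orange), with 95% counting intervals as bars and 1.2-fold as dashed lines. YA-A375 points lie mostly left of 1 (29 of 40) and OA-A375 points mostly right of it (34 of 40), with POLE and CDT1 as the YA-A375 points beyond 1.2-fold on the right.

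PCNA, the sliding clamp, had 5447 counts in control, 4314 in YA-A375 and 4402 in OA-A375. It stood at 0.794 of control (0.763 to 0.827) in YA-A375 and at 0.963 (0.925 to 1.00) in OA-A375, so the lower value belonged to YA-A375. The clamp loader subunits RFC2, RFC3, RFC4 and RFC5 ran from 0.872 to 1.02 of control in YA-A375 and from 1.01 to 1.22 in OA-A375. The loader subunits RFC3, RFC4 and RFC5 did not share the value of the clamp in YA-A375, where the interval of PCNA lay below theirs. The interval of RFC2, at 0.872 of control (0.81 to 0.94), overlapped that of PCNA.

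Polymerase genes differed between subunits of the same enzyme. POLE, the catalytic subunit of the leading strand polymerase epsilon, had 1962 counts in control, 2525 in YA-A375 and 1791 in OA-A375, and stood at 1.29 of control (1.22 to 1.37) in YA-A375 and 1.09 (1.02 to 1.16) in OA-A375. It was the highest of the 40 in YA-A375. POLE2, its accessory subunit, had 242, 269 and 279 counts and was the highest of the 40 in OA-A375, at 1.37 (1.15 to 1.64). Both subunits were above control in both exposures as point values, although the interval of POLE2 in YA-A375 (0.934 to 1.33) included 1. In YA-A375 against OA-A375 they lay on opposite sides, at 1.19 (1.12 to 1.26) for POLE and 0.812 (0.684 to 0.963) for POLE2. POLD1 and POLD3 of polymerase delta, which extends the lagging strand, stood at 1.03 and 0.975 in YA-A375 and at 1.24 and 1.2 in OA-A375. POLA1, the catalytic subunit of polymerase alpha, was at 0.993 and 0.957 of control, with a YA-A375 to OA-A375 ratio of 1.04 (0.968 to 1.11), whereas POLA2, its second subunit, had 994, 893 and 999 counts and a YA-A375 to OA-A375 ratio of 0.753 (0.687 to 0.825). PRIM1, the catalytic primase subunit, was at 0.867 and 1.13 of control and PRIM2 at 1.07 and 1.08.

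Okazaki fragments are trimmed by the flap nuclease FEN1 and joined by the ligase LIG1, and these 2 genes went separate ways in YA-A375. FEN1 had 3155 counts in control, 2451 in YA-A375 and 2765 in OA-A375, at 0.779 of control (0.739 to 0.822) and 1.04 (0.992 to 1.10). LIG1 had 1109, 1244 and 1031 counts, at 1.13 (1.04 to 1.22) and 1.11 (1.02 to 1.21). FEN1 was thus lower in YA-A375 than in either other library, while LIG1 was a little above control in both exposures.

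RPA subunits protect single strands. RPA1, the largest, had 3817, 3731 and 3823 counts in control, YA-A375 and OA-A375, at 0.98 (0.937 to 1.03) and 1.19 (1.14 to 1.25) of control. RPA2 had 2079, 1690 and 1957, at 0.815 (0.764 to 0.87) and 1.12 (1.05 to 1.19), with a YA-A375 to OA-A375 ratio of 0.727 (0.681 to 0.776). All 3 subunits were at least 1.2-fold lower in YA-A375 than in OA-A375. RPA3 had far fewer counts, at 400, 423 and 434, and stood at 1.06 (0.923 to 1.22) and 1.29 (1.13 to 1.48) of control.

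Ribonucleotide reductase makes deoxynucleotides, and its subunit RRM2 is limiting for the enzyme in S phase. RRM2 had 7708 counts in control, 7552 in YA-A375 and 8103 in OA-A375, at 0.983 (0.952 to 1.01) and 1.25 (1.21 to 1.29) of control. Its value was therefore near control in YA-A375 and above it in OA-A375. The large subunit RRM1 had 3227, 3346 and 3016 counts, at 1.04 (0.991 to 1.09) and 1.11 (1.06 to 1.17). TYMS, the thymidylate synthase that makes dTMP, stood at 0.89 (0.821 to 0.965) and 1.13 (1.04 to 1.22).

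The G1/S regulators did not behave as a unit. Cyclin E1 (CCNE1), an activator of CDK2, had 366 counts in control, 277 in YA-A375 and 277 in OA-A375, at 0.759 of control (0.647 to 0.89) and 0.902 (0.769 to 1.06). Cyclin E2 (CCNE2) had 222, 177 and 138 counts, at 0.80 (0.653 to 0.979) and 0.741 (0.594 to 0.92), and was the lowest of the 40 in OA-A375. The cyclin E genes were thus below control in both exposures as point values. E2F1, the transcription factor, had 942, 838 and 922 counts, at 0.892 (0.812 to 0.98) and 1.17 (1.06 to 1.28), and a YA-A375 to OA-A375 ratio of 0.765 (0.696 to 0.841). It followed the common order of the replication genes, while both cyclin E genes did not.

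Levels of different genes can be compared only per length, as counts per kilobase of exon scaled to a sum of 1000000 in each library. On this scale PCNA was the highest of the 40 genes in every library, with levels of 717 in control, 560 in YA-A375 and 683 in OA-A375, and CCNE2 the lowest, with 9.77, 7.69 and 7.16. The median level of the 40 was 60, 54.1 and 66.8. In control, PCNA was at the 98.9th and CCNE2 at the 32.4th percentile of all tested genes. Length here was that of all annotated exons merged, such as 7338 bases for MCM5 and 4386 for MCM7, or 3232 for RPA3 and 2019 for RPA2. Which exons were in use was not examined, so level differences between genes depend in part on this length. In control, MCM7 had 9331 counts and MCM5 2579. On this scale, subunits that act in 1 complex differed in level by an amount that depended on the complex. Within MCM2-7, the level of MCM7 was 6.05 times that of MCM5 in control, 5.80 in YA-A375 and 5.91 in OA-A375. Within RPA, RPA2 was 8.32, 6.4 and 7.22 times RPA3. The highest subunit exceeded the lowest 4.96, 4.69 and 4.15 times in GINS, 3.09, 2.68 and 2.55 times in RFC2-5, 2.99, 2.62 and 3.1 times in polymerase alpha with primase, and 1.87, 1.77 and 2.11 times in ribonucleotide reductase.

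**Figure D4:**
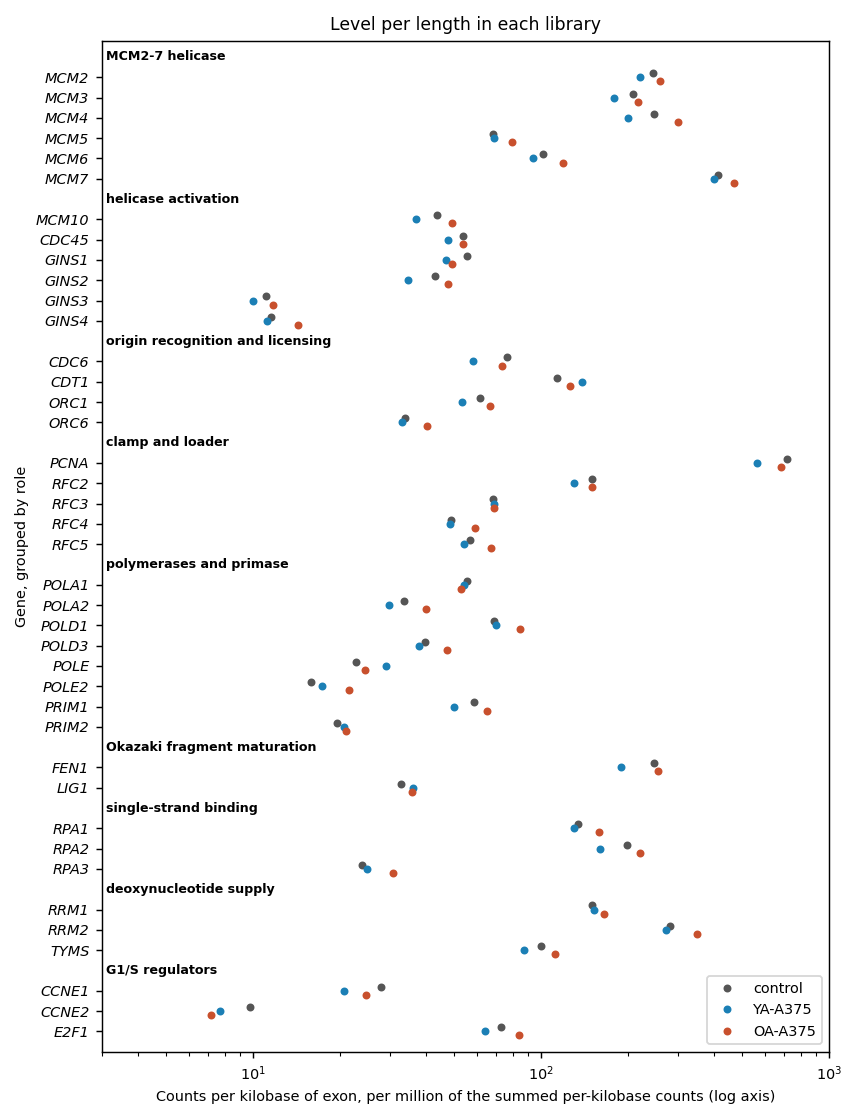
Level per length of each of the 40 genes by role (x axis, log scale; counts per kilobase of exon, scaled to a sum of 1000000 in each library) in control (grey), YA-A375 (blue) and OA-A375 (orange). Genes span from CCNE2 at 7.16 to PCNA at 717, and the 3 libraries lie close together for each gene.

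The mitosis genes, which peak later in the cycle, showed a different order. Of 20 listed genes, 13 passed 1.2-fold upward and 0 downward in YA-A375 against control, and 17 and 0 in OA-A375. The shares over all genes, which also stand beside the lists that follow, were 17.4% upward and 16.4% downward in YA-A375, 21.1% and 21.5% in OA-A375, and 23.0% and 21.5% in YA-A375 against OA-A375. The median log2 fold changes of the mitosis genes were 0.31 and 0.44, and the median in YA-A375 against OA-A375 was -0.15, with 1 higher (TOP2A, at 1.22) and 6 lower. CDC20, an activator of the anaphase-promoting complex, had 3389 counts in control, 4741 in YA-A375 and 5890 in OA-A375, at 1.4 and 2.07 of control. PLK1, CCNB1 and BUB1, which act in mitotic entry and the spindle checkpoint, stood at 1.29, 1.28 and 1.24 in YA-A375 and at 1.63, 1.62 and 1.61 in OA-A375. CDK1, the kinase of mitotic entry, was at 0.989 and 0.925 of control, and KIF11, a spindle motor, at 0.964 and 1.07. YA-A375 therefore had the 40 replication genes mostly below control (29 of 40) beside mitosis genes mostly above it, whereas in OA-A375 both lists were mostly above. The 32 other replication genes did not share the lower side in YA-A375, with 17 above control and 15 below, and a median of 0.03. Without the members whose exons are overlapped over 20% by other genes, the median of the set in YA-A375 was -0.045, beside -0.02 over all genes. The counts of the mitosis genes per count of the replication genes, a ratio that no scaling of a library alters, were 0.904 (0.896 to 0.913) in control, 1.2 (1.19 to 1.21) in YA-A375 and 1.06 (1.05 to 1.07) in OA-A375.

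Of 32 other genes of replication, 10 (31.2%) were at least 1.2-fold lower and 1 higher in YA-A375 against OA-A375, with a median log2 fold change of -0.14. Against control, 2 were higher and 3 lower in YA-A375 (median 0.03), and 9 higher (28.1%) and 3 lower in OA-A375 (median 0.19). CLSPN, the checkpoint adaptor claspin, had 1288, 928 and 1228 counts, at 0.723 and 1.14 of control and 0.636 in YA-A375 against OA-A375. TICRR, which brings factors to origins for CDC45 loading, was the exception, with 852, 1001 and 574 counts and a YA-A375 to OA-A375 ratio of 1.47 (1.32 to 1.63). CHTF18, of an alternative clamp loader, stood at 1.28 and 1.35 of control, and POLD4, a small polymerase delta subunit, at 1.10 and 1.36.

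Among other regulators of G1/S, 20 of 21 genes passed the filter. CCND2, which did not, had 1, 3 and 0 counts. In YA-A375, 0 were at least 1.2-fold higher and 3 lower (median log2 fold change -0.11). In OA-A375, 5 were higher and 5 lower (25% each, near the background, median 0.02), and in YA-A375 against OA-A375, 3 higher and 5 lower (median -0.08). CCND1, cyclin D1, had 14885 counts in control, 11000 in YA-A375 and 14274 in OA-A375, at 0.741 (0.723 to 0.76) and 1.14 (1.12 to 1.17) of control. It lay on the same side of control as most replication genes in each exposure. CCNA2, cyclin A2, which acts in S phase and G2, was at 1.05 and 1.43, E2F5 at 0.917 and 1.30, and TFDP2, a partner of E2F factors, at 0.882 and 0.672.

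Of the CDK inhibitors, 6 of 7 genes passed the filter, and CDKN2B was at 0 counts in every library. In YA-A375, 1 was at least 1.2-fold higher and 2 lower (median log2 fold change -0.02), in OA-A375 likewise 1 and 2 (median -0.01), and in YA-A375 against OA-A375, 0 and 1 (median -0.01). CDKN1A, the p21 inhibitor of CDK2, had 3591, 3798 and 4720 counts, at 1.06 (1.01 to 1.11) and 1.57 (1.5 to 1.64) of control. It was thus highest in the library where the replication genes were highest. CDKN1B, the p27 inhibitor, stood at 0.739 and 0.82, CDKN1C at 0.683 and 0.623, and CDKN2A, with 65, 88 and 64 counts, at 1.36 (0.974 to 1.90) and 1.17 (0.817 to 1.68).

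The 19 other genes of nucleotide synthesis included 1 higher and 1 lower in YA-A375 (median log2 fold change -0.06), 5 higher and 1 lower in OA-A375 (median 0.13), and 0 higher and 5 lower in YA-A375 against OA-A375 (median -0.09). SHMT2, the mitochondrial enzyme that takes one-carbon units from serine, stood at 1.37 and 1.30 of control, CTPS1, which makes CTP, at 0.876 and 1.28, UMPS, which makes UMP, at 0.776 and 0.826, and PPAT, the first enzyme of purine synthesis, at 0.90 and 1.16. Of 12 genes of repair and DNA methylation in S phase, 0 were higher and 2 lower in YA-A375 (median -0.07), 2 higher and 0 lower in OA-A375 (median 0.08), and 0 higher and 2 lower in YA-A375 against OA-A375 (median -0.16). UHRF1, which guides maintenance methylation, had 3618, 2819 and 3534 counts, at 0.782 and 1.16 of control. MSH6, of mismatch repair, was at 0.864 and 1.26, DNMT1, the maintenance methyltransferase, at 1.11 and 1.26, and BRIP1, a helicase of repair, at 0.779 and 0.872.

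As for the label of the cells, 8 of 12 melanoma markers passed the filter in these libraries. Pigment cell genes had few counts, with SOX10 at 0 counts in all 3 libraries, PMEL at 2, 10 and 10, MLANA at 22, 18 and 16 and TYR at 2, 0 and 0, while MITF had 1221, 764 and 881 and VIM 27938, 26770 and 23928. Overlap of exons with other genes was not examined for these markers, so 0 counts of SOX10 need not mean that its RNA was absent. The other markers on that list were well counted. AXL had 9837, 8832 and 10449 counts, CSPG4 19441, 29002 and 16208, and MCAM 6699, 7666 and 7517. S100A4 had 4319, 3264 and 3988, S100B 843, 591 and 550, and NGFR 3060, 2774 and 1289. Carry-over of adipocytes was looked at through 10 markers, of which 6 passed the filter. Their summed normalised counts were 2240 in control, 3180 in YA-A375 and 2276 in OA-A375, and PPARG gave the most, with 1608, 1964 and 1530 counts. The defining markers ADIPOQ (1, 0 and 0), LEP (0 in each) and PLIN1 (2, 5 and 2) were at or near 0, and FABP4 had 16, 15 and 2. Other lipid genes on that list were well counted and highest in YA-A375, with PLIN4 at 284, 579 and 321 counts, LIPE at 79, 153 and 67 and LPL at 353, 583 and 30, the last of which was 16.4-fold (11.3 to 24.5) higher in YA-A375 than in OA-A375. CIDEC (6, 31 and 36) and CFD (28, 35 and 40) were lowest in control. The 9 fibroblast and preadipocyte markers, 5 of them past the filter, summed to 710, 896 and 630 normalised counts, with COL1A2 at 1, 1 and 2, COL3A1 at 0, 1 and 1, THY1 at 4, 1 and 2 and FAP at 3, 1 and 5. DCN had 13, 138 and 24 counts, COL1A1 75, 117 and 84, LUM 66, 101 and 58 and PDGFRB 515, 568 and 334, all highest in YA-A375, whereas PDGFRA had 76, 20 and 51. The 4 leukocyte markers summed to 6.6, 9.45 and 5.61. Both the adipocyte and the fibroblast sums were thus highest in the library where the replication genes were lowest, and the part of these markers in that result was not tested.

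Some members share exon sequence with other genes in the GENCODE 29 annotation, and the use of strand in counting was not given in the sources used here. More than 20% of exonic bases were overlapped in 7 members, namely TYMS (46.6%, chiefly by ENOSF1 on the opposite strand), CCNE2 (37.1%, chiefly by INTS8 on the opposite strand), POLA2 (35.1%), MCM2 (23.6%), GINS4 (23.6%), PRIM1 (21.6%) and RRM2 (20.2%). A share of overlapped bases is not a size of count error, and the effect on counts was not measured. For POLA2, MCM2, PRIM1 and RRM2 the gene with the largest overlap was not in the count table. It was the only overlapping gene for POLA2 and RRM2. The gene with the largest overlap of GINS4 had 0, 1 and 0 counts. ENOSF1 had 259, 474 and 229 counts in control, YA-A375 and OA-A375. The 12 processed pseudogenes named after members had at most 7 counts each. GC content was that of the longest protein-coding transcript of each gene, or of the longest of any kind where there was none. Its median was 48.1% over the members, beside 48.2% for all genes. Over the 40 genes, which share their 3 libraries and are no replicates of one another, GC content and the log2 fold change correlated weakly, with Pearson's r of 0.22 in YA-A375 and 0.21 in OA-A375 against control and 0.03 in YA-A375 against OA-A375. On ranks, Spearman's rho of the 40 genes was 0.08, 0.09 and -0.01. For the 20 mitosis genes, whose median GC content was 43.8%, Pearson's r was 0.61, 0.64 and -0.37. Over the 14380 tested genes with a known GC content it was 0.16, 0.04 and 0.07. Centred on genes of like GC content and length, an alternative chosen after seeing the data, the median log2 fold change of the mitosis genes was 0.36 in YA-A375 and 0.42 in OA-A375 against control.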

How the data were processed

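Poly(A) RNA libraries of A375 cells were made with an Agilent SureSelect kit and sequenced on an Illumina NovaSeq, per the labels. The authors deposited raw counts per gene, whole numbers that had not been normalised. The submitters' processing notes name STAR 2.5.1b, featureCounts, R 3.6.1 and hg38. Strand use and annotation release were not given in the sources used here. No column of per-sample values was left unused.

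The groups came from the treatment labels for control and OA-A375 and from the sample title for YA-A375, with 1 library each. Counts were scaled with DESeq2 1.42.0 size factors in R 4.3.3, folds were plain ratios of normalised counts, and log2((a + 1)/(b + 1)), with a pseudocount of 1, decided the 1.2-fold calls and was computed where normalised counts averaged 20 or more over the libraries (14413 genes). Without replicates no test was run. The study names DESeq2 and a cutoff of 1.2, read here as a linear fold. Intervals of folds were 95% Clopper-Pearson and those of shares 95% Wilson, and total counts of 18089008 to 21448195 set their width. Levels per length used merged exons of GENCODE 29, whose identifiers matched 57433 of 58037 genes. RefSeq promoter windows were searched for fixed letters. Only the fold changes and their counting intervals were tested on simulated data, with known folds, fixed size factors and no spread between cultures. Other steps ran in Python 3.11.15 (matplotlib 3.10.9, scipy 1.17.1, pandas 2.3.3, numpy 2.4.6).

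The 40 members and all other lists were chosen with earlier results of these data known. All members are named by role, and counts are given where the counting interval lay wholly beyond 1.2-fold and for at least 1 member of each role. Each other list is represented by up to 4 genes with the largest absolute log2 fold change. The mitosis genes CDK1, KIF11 and TOP2A were named outside that rule. Alternatives were edgeR 4.0.16 TMM factors, total counts, other filters and pseudocounts, centring by expression or by GC content and length, other thresholds, the mean of the members, and the set without overlapped members.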

Additional observations from a re-analysis of the deposited data

How the results depend on the processing

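The signs of the 3 medians were kept under every alternative run, with ranges of -0.111 to -0.045 in YA-A375 against control, 0.14 to 0.165 in OA-A375 against control and -0.282 to -0.235 in YA-A375 against OA-A375 on the log2 scale. With edgeR TMM factors or with total counts, 7 in place of 9 members were at least 1.2-fold higher in OA-A375 and 22 in place of 24 lower in YA-A375 against OA-A375. With all genes centred in bins of expression, the median was -0.067 in YA-A375 against control, with 5 members lower, and -0.248 in YA-A375 against OA-A375, with 1 higher and 18 lower. Centred in a grid of GC content and length, an alternative chosen after seeing the data, 1 member was higher and 4 lower in YA-A375 against control, and 18 were lower in YA-A375 against OA-A375. The cause of these changes was not tested. The mitosis genes, recomputed after seeing the data, had medians of 0.355 and 0.362 under these centrings in YA-A375, 0.408 and 0.424 in OA-A375, and -0.107 and -0.125 in YA-A375 against OA-A375. Without the 7 overlapped members, also chosen after seeing the data, the median in YA-A375 against control was -0.045, beside -0.02 over all genes. In that set, 0 of 33 members were lower in OA-A375, since CCNE2 was among those left out. The mean of the members was -0.235 in YA-A375 against OA-A375. By construction, stricter thresholds gave fewer calls: at 2-fold, or with the study's cutoff read as a log2 fold change of 1.2, there were 0 in all comparisons. With the interval required to lie beyond 1.2-fold there were 1 higher and 3 lower in YA-A375, 1 and 0 in OA-A375, and 7 lower in YA-A375 against OA-A375. Of 840 recomputed values of single members, 20 moved beyond their counting interval and 0 changed sign while called. No paired analysis was possible because each group had 1 library. Counting error limits CCNE2, POLE2 and GINS3 most, and the spread between cultures is unknown.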
